A study of Homo sapiens with 2 samples.

Results

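Prolyl isomerases speed the rotation of the peptide bond before proline, a slow step in protein folding, and the genes described here are the members of their 2 large families in a table of chaperone genes. Members were all rows whose protein name begins with PPI, for the cyclophilins, or with FKBP. They came to 32 of the 332 genes, with 15 cyclophilins and 17 FKBPs. Cyclophilins are the proteins bound by the immunosuppressant cyclosporin A, and FKBPs are those bound by FK506 and rapamycin, although not every member binds the drug or is an active isomerase. Both families have small members of a single catalytic domain and larger ones with added domains. Members with tetratricopeptide repeats dock on HSP90, others carry signals for the endoplasmic reticulum (ER), and several nuclear cyclophilins belong to the spliceosome.

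The RNA came from HEK293 Flp-In T-Rex cells, an established line from human embryonic kidney with a recombination site at which a gene can be placed under tetracycline control. There were 2 libraries, labelled as replicates 1 and 2 of 1 group, and no control or treated group. The design text describes derived lines that carry tagged GFP or tagged HSPA1A and were induced with tetracycline, and which of these lines, if any, was sequenced here is not labelled. The prefix NHS of the read columns is defined nowhere in the sources used here. The table holds chaperone genes only, so markers of the cell line were not checked. No label states that separate cultures were used, so the spread between replicates may be technical and every p-value measures only these samples.

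The library totals behind the deposited RPKM, recovered by calculation, were 6828264 and 4445676 reads. Which reads these totals count is not labelled. The 32 members took 14731 reads in replicate 1, or 0.216% of its total (95% Wilson interval 0.212 to 0.219). They took 9378 reads in replicate 2, or 0.211% (0.207 to 0.215). Cyclophilins held 9722 and 6194 of these reads and FKBPs 5009 and 3184. Intervals and limits for counts of 0 cover counting error only. Levels are given as RPKM, reads per kilobase of gene scaled to the size of the library. The deposited RPKM divides by the genomic span of a gene, introns included. Where it bears on a result, the level per kilobase of exon stands beside it. As the counting program is not named, it is not known whether reads in introns were counted. If they were, the exonic level is too high, most of all for genes with long introns.

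At a mean of at least 1 RPKM per kilobase of genomic span, 17 of the 32 members were counted. All 17 passed in both libraries, and FKBP14 also passed in replicate 1, which made 18 there. Over the 332 genes, 46.4% reached this level. By family, 10 of 15 cyclophilins and 7 of 17 FKBPs reached it. The members nearest to the threshold were PPIL2 at 1.04 RPKM and FKBP14 at 0.988 RPKM. Per kilobase of exon, 24 members reached 1 RPKM, with 12 of each family, against 74.4% of the table. The shares of all members lay close to those of the table on both scales.

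The levels were concentrated in few genes. PPIA, FKBP4, PPIB and PPIF were the 4 highest members and held 67.2% of the summed mean RPKM of the members per kilobase of genomic span. The share of PPIA was 19.9% of that sum in replicate 1 and 20.0% in replicate 2. It was 27.4% of the sum with exonic length and 35.3% of the members' reads.

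**Figure D1:**
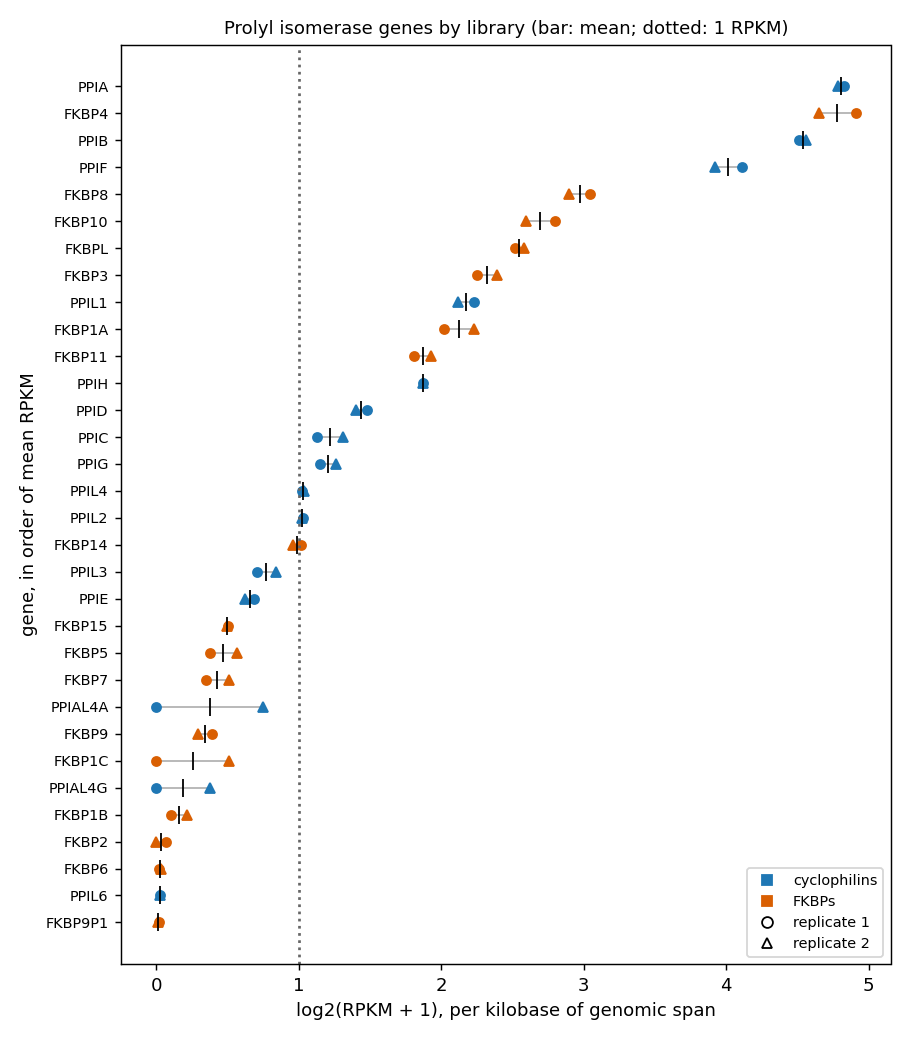
Level of each of the 32 genes in each library, as log2(RPKM + 1) per kilobase of genomic span, in order of mean RPKM. Circles are replicate 1, triangles replicate 2, and the short bar is their mean; PPIA, FKBP4, PPIB and PPIF stand apart at the top, and 15 genes lie left of the dotted line at 1 RPKM.

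Among the small cytosolic members, PPIA was far above FKBP1A and FKBP1B. PPIA, cyclophilin A, is the main cytosolic target of cyclosporin A (ENSG00000196262, chromosome 7, 44796680 to 44824564, plus strand, GRCh38). It had 5230 reads in replicate 1 and 3295 in replicate 2, which gave 27.5 and 26.6 RPKM. FKBP1A, known as FKBP12, is the small FKBP through which rapamycin acts on mTOR (ENSG00000088832, chromosome 20, 1368977 to 1393164, minus strand). It stood at 3.06 and 3.68 RPKM, from 506 and 396 reads. PPIA exceeded FKBP1A 8.09 ± 1.24-fold by genomic span (SD, n = 2) and 5.42 ± 0.829-fold by exonic length. FKBP1B, a close relative known for binding ryanodine receptors in heart muscle, had 7 and 10 reads and stood at 0.0733 and 0.161 RPKM. A stretch of 27.7% of its exonic bases also belongs to MFSD2B on the same strand, so reads there cannot be placed on 1 gene by position.

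The cytosolic members that dock on HSP90 spread widely, with FKBP4 at the top. FKBP4, or FKBP52, is a co-chaperone that favours steroid receptor activity (ENSG00000004478, chromosome 12, 2794970 to 2805423, plus strand). It had 2073 and 1124 reads, at 29.04 and 24.2 RPKM. FKBP5, or FKBP51, is its close relative, acts against it on the glucocorticoid receptor and is itself induced by glucocorticoids (ENSG00000096060, chromosome 6, 35573585 to 35728583, minus strand). It had 317 and 331 reads, at 0.300 and 0.480 RPKM. FKBP4 exceeded FKBP5 in both libraries, 73.7 ± 33.0-fold by genomic span (SD, n = 2) and 10.2 ± 4.56-fold by exonic length. On the log2(RPKM + 1) scale by span the difference was 4.53 in replicate 1 and 4.09 in replicate 2.

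PPID, or cyclophilin 40, is the cyclophilin of the same design (ENSG00000171497, chromosome 4, 158709127 to 158723396, minus strand). Its level was 1.79 and 1.64 RPKM, from 174 and 104 reads, and FKBP4 exceeded it 15.5 ± 1.07-fold (SD, n = 2). Per kilobase of exon that ratio was 5.503 ± 0.379. FKBPL, a short gene with similar repeats, stood at 4.72 and 4.98 RPKM from 51 and 35 reads. Its span is only 1.18 times its exonic length, and it was below PPID per kilobase of exon, at 5.70 against 9.74 RPKM. FKBP6, known from male germ cells (chromosome 7, 73328161 to 73358637, plus strand), had 3 reads in each library, at 0.0144 and 0.0221 RPKM. FKBP15, a large member linked to the actin cytoskeleton, stood at 0.413 ± 0.00352 RPKM (SD, n = 2).

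In the ER, PPIB was the highest of 8 members. PPIB, cyclophilin B, assists collagen folding in a complex with prolyl 3-hydroxylase (ENSG00000166794, chromosome 15, 64155740 to 64163134, minus strand). It had 1100 and 745 reads, at 21.8 and 22.7 RPKM. PPIC, cyclophilin C, the other ER cyclophilin, stood at 1.18 and 1.49 RPKM. PPIB exceeded it 16.8 ± 2.22-fold by genomic span (SD, n = 2) and 10.1 ± 1.34-fold by exonic length. The annotation gives 27.2% of the exonic bases of PPIB also to SNX22 on the opposite strand. Genes on the opposite strand likewise cover 32.2% of the exonic bases of PPIL2, 28.9% of FKBP3, 19.5% of PPID and 14.3% of FKBP15. The library kit keeps strand, but the sources used here do not state the strand setting of the counting.

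Among the 6 FKBPs of the ER, FKBP10 led. FKBP10, or FKBP65, acts on collagen and is mutated in forms of brittle bone disease (ENSG00000141756, chromosome 17, 41812680 to 41823213, plus strand). It stood at 5.95 and 5.04 RPKM, from 428 and 236 reads. FKBP14, another collagen chaperone, was lower at 1.03 and 0.949 RPKM, and FKBP10 exceeded it 5.55 ± 0.343-fold (SD, n = 2). FKBP11 stood at 2.66 ± 0.214 RPKM, FKBP7 at 0.348 ± 0.104 and FKBP9 at 0.269 ± 0.0590 RPKM (SD, n = 2). FKBP11 ranked above FKBP14 per kilobase of genomic span but not per kilobase of exon, where it stood at 2.66 against 2.99 RPKM, a difference within the replicate spread. The annotated exons of FKBP11 together cover its whole span, introns of single transcripts included, so its level is the same on both scales. For FKBP14 they cover 5326 of 16115 bases, so the 2 exonic levels are not of the same kind.

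FKBP2, or FKBP13, is a small ER member (ENSG00000173486, chromosome 11, 64241003 to 64244132, plus strand). Replicate 1 held 1 read of it, at 0.0468 RPKM. Replicate 2 held 0, which allows up to 0.216 RPKM. In the annotation used here its exons overlapped no other gene, and 0 of its 1651 windows of 50 bases occurred in transcripts of another gene. The sources used here do not name the counting program, and the cause of the low count was not tested.

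The mitochondrial members both stood well above the typical member. PPIF, or cyclophilin D, is the matrix protein that regulates the permeability transition pore (ENSG00000108179, chromosome 10, 79347469 to 79355334, plus strand). It had 874 and 494 reads, at 16.3 and 14.1 RPKM. FKBP8, or FKBP38, is anchored in the outer mitochondrial membrane and takes part in the control of apoptosis and mitophagy (ENSG00000105701, chromosome 19, 18531751 to 18544077, minus strand). It had 611 and 354 reads, at 7.26 and 6.46 RPKM. PPIF exceeded FKBP8 2.21 ± 0.0387-fold by genomic span (SD, n = 2) and 1.53 ± 0.0268-fold by exonic length. No gene overlapped the exons of PPIF.

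The 8 nuclear members lay within a narrow band, from 0.577 to 4.01 RPKM, and 6 of them reached 1 RPKM. FKBP3, or FKBP25, a DNA- and RNA-binding member, was the 1 nuclear FKBP (ENSG00000100442, chromosome 14, 45115599 to 45135319, minus strand). It had 507 and 373 reads, at 3.77 and 4.25 RPKM. PPIL1, a spliceosomal cyclophilin, stood at 3.70 and 3.34 RPKM, and its difference from FKBP3 was within the replicate spread on both length scales. PPIH, which binds the U4/U6 small nuclear ribonucleoprotein, was nearly equal in both libraries, at 2.66 RPKM in each. An antisense gene covers 38.9% of its exonic bases.

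The other nuclear cyclophilins were lower. PPIG, with a long tail rich in serine and arginine, stood at 1.31 ± 0.130 RPKM, and PPIL4, which carries an RNA-binding domain, at 1.05 ± 0.0137 RPKM (SD, n = 2). PPIL2, a ubiquitin ligase of the U-box type, stood at 1.04 ± 0.00729 RPKM. PPIL3 was at 0.712 ± 0.117 and PPIE, a spliceosomal member with an RNA-binding domain, at 0.577 ± 0.0495 RPKM. Per kilobase of exon all 8 nuclear members passed 1 RPKM, from 4.49 RPKM for PPIL3 to 38.9 RPKM for PPIL1. PPIL6, whose compartment was left unassigned (chromosome 6, 109390215 to 109441171, minus strand), had 6 and 4 reads, at 0.0172 and 0.0177 RPKM.

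**Figure D2:**
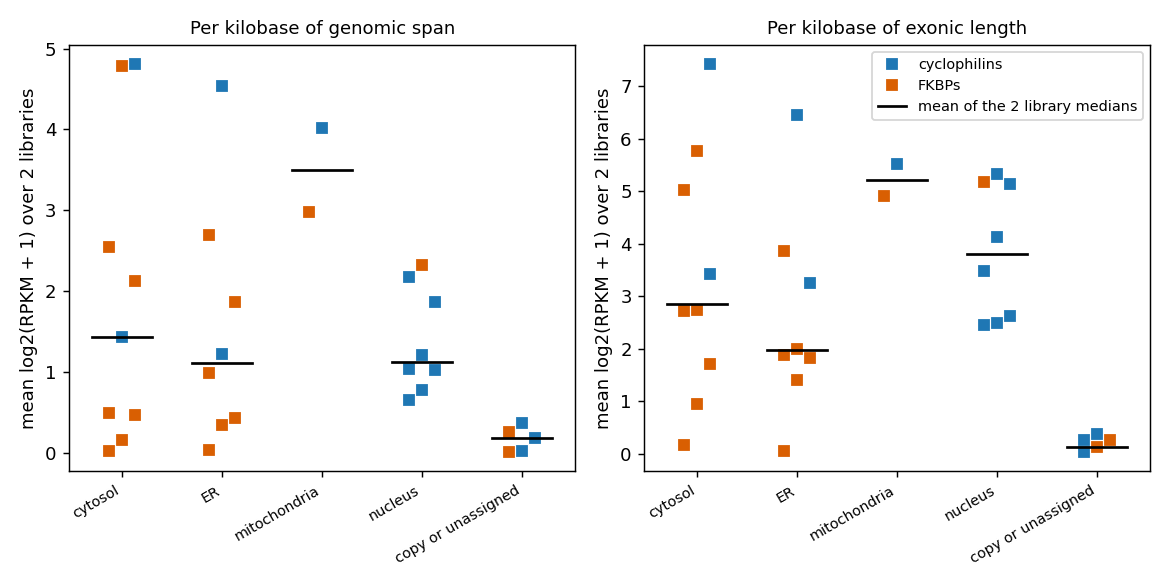
Mean log2(RPKM + 1) of each gene by compartment, per kilobase of genomic span on the left and of exon on the right, with squares coloured by family and a line at the mean of the library medians. The nuclear median lies below the cytosolic one on the left and above it on the right.

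Copies of PPIA and FKBP1A had almost no reads. PPIAL4A and PPIAL4G are single-exon genes on chromosome 1 derived from PPIA, at 120889746 to 120890405 on the plus strand and 148482548 to 148483302 on the minus strand. They had 0 reads in replicate 1, which allows up to 0.667 and 0.583 RPKM, and 2 and 1 reads in replicate 2, at 0.683 and 0.298 RPKM. FKBP1C, a single-exon copy of FKBP1A on chromosome 6 at 63211446 to 63213024 on the plus strand, had 0 and 3 reads. FKBP9P1, a transcribed pseudogene of FKBP9 (chromosome 7, 55681074 to 55713252, minus strand), had 3 and 1 reads, at 0.0137 and 0.00699 RPKM. The coding starts below show how far each copy differs from its parent, which sets whether a read could match both. They run from coding base 1 to 90 in annotated GENCODE 29 transcripts, 5′ to 3′, and capitals mark bases that differ from PPIA.
PPIA: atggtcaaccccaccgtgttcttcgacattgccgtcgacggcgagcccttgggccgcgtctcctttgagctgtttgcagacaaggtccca
PPIAL4A: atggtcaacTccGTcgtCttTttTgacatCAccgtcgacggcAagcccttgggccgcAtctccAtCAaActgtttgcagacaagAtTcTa
PPIAL4G: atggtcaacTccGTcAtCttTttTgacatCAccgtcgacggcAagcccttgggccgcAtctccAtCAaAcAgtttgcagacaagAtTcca

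PPIAL4A differed from PPIA at 17 of these 90 bases and PPIAL4G at 18. Over the whole coding sequence both were closer to it, with 91.6% and 91.4% identical bases. In the FKBP1A set the capitals mark differences from FKBP1A, and FKBP1B is shown as a true paralog beside the copy FKBP1C.
FKBP1A: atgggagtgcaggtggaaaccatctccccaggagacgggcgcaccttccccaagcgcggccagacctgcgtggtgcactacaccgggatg
FKBP1C: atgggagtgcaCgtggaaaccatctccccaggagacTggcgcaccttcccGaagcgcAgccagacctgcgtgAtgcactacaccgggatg
FKBP1B: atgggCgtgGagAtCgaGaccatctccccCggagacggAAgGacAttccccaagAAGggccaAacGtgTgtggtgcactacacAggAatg

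FKBP1C matched FKBP1A at 98.2% of coding bases, with 5 differences in this stretch, while FKBP1B matched at 74.9%, with 18. Of the windows of 50 bases in FKBP1A transcripts, 15.2% also occurred in FKBP1C. For PPIA, 8.83% of windows occurred in transcripts of 43 annotated pseudogenes, and 40.2% of the windows of FKBP9P1 occurred in FKBP9. Taking every other gene together, the shared windows came to 67.6% for PPIAL4A, 14.3% for PPIAL4G, 28.6% for FKBP1C, 26.0% for FKBP9 and 21.1% for FKBP1A. For PPIAL4A 60.6% occurred in PPIAL4C alone. The windows found in PPIA came to 7.69% for PPIAL4A and 1.87% for PPIAL4G. Those of FKBP1C found in FKBP1A came to 27.8%. The sources used here do not state how reads matching several genes were treated, so the levels of PPIA, FKBP1A, FKBP9 and their copies are uncertain.

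As a family, cyclophilins stood higher than FKBPs at the median. The median cyclophilin was at 1.31 RPKM and the median FKBP at 0.413 RPKM, beside 0.784 RPKM for all 332 genes. On the log2(RPKM + 1) scale the difference of the family medians was 0.63 in replicate 1 and 0.70 in replicate 2. Per kilobase of exon it was 1.39 and 1.47. Without the PPIA, FKBP1A and FKBP9 copies described above, the difference by genomic span was 0.24 ± 0.156 (SD, n = 2). It turned to -0.89 over the members that reached 1 RPKM, which set aside 5 cyclophilins and 10 FKBPs. Genes are not replicates, and the smallest p that an exact test on 2 libraries allows is 0.5, so none was computed.

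By compartment, the cytosolic median was 1.71 RPKM over 9 genes, the nuclear one 1.18 RPKM over 8 and the ER one 1.16 RPKM over 8, with 11.0 RPKM for the 2 mitochondrial genes. Nuclear minus cytosolic medians came to -0.39 in replicate 1 and -0.25 in replicate 2 on the log2(RPKM + 1) scale. With exonic length the sign turned, to 1.04 and 0.85, though whether reads in introns were counted is not known. The median ratio of span to exonic length was 8.80 for nuclear, 6.29 for cytosolic, 3.59 for mitochondrial and 3.45 for ER members. ER minus cytosolic medians came to -0.40 and -0.26, and to -0.70 and -1.06 with exonic length. With both families pooled, the direction held in both libraries on both scales. Within the FKBPs it turned by genomic span, with ER medians of 0.705 and 0.735 against cytosolic ones of 0.501 and 0.566. With exonic length the FKBP medians kept it, at 1.90 and 1.80 against 2.42 and 2.78. The cyclophilin medians, over 2 genes each, kept it on both scales.

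The order of single genes was resolved in part. Of the 31 pairs of neighbours in the order by mean RPKM, 9 differed in the same direction in both libraries with a mean difference beyond its 95% limit, with no adjustment over the pairs. PPIA and FKBP4 were not resolved per kilobase of genomic span, where their log2(RPKM + 1) levels differed by 0.03 (SE 0.091, from the replicate spread pooled over all genes of the table). FKBP4 exceeded PPIB by 0.24, PPIB exceeded PPIF by 0.52, PPIF exceeded FKBP8 by 1.04 and FKBP8 exceeded FKBP10 by 0.28. The other resolved neighbours were FKBPL over FKBP3, FKBP1A over FKBP11, PPIH over PPID, PPID over PPIC and FKBP14 over PPIL3. The same SE served every pair and does not follow the reads or spread of a gene, so it can be too small for some. FKBPL had only 51 and 35 reads, and FKBP4 exceeded PPIB by 0.40 in replicate 1 but 0.09 in replicate 2. Below PPIL3 none of the neighbouring pairs was resolved on this scale. With a pseudocount of 0.1 RPKM 4 pairs were resolved, and of the 9 named these were PPIB over PPIF, PPIF over FKBP8 and PPIH over PPID. The added pair was FKBP1B over FKBP2, both with very few reads.

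The order at the top depended on the gene length used. Per kilobase of exon PPIA stood at 170 ± 3.95 RPKM, PPIB at 86.0 ± 2.399, FKBP4 at 53.7 ± 6.93 and PPIF at 44.7 ± 4.46 RPKM (SD, n = 2). PPIA then exceeded FKBP4 by 1.65 (SE 0.125) on the log2(RPKM + 1) scale and ranked 6 in the whole table, against 14 by genomic span. PPIB exceeded FKBP4, by 0.67, so that this pair turned. FKBP5, whose span is 14.6 times its exonic length, stood at 5.69 RPKM instead of 0.390 RPKM, beside FKBPL at 5.70. Across the 32 members Spearman's rho between the scales was 0.923, over genes that share the same libraries and reads.

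**Figure D3:**
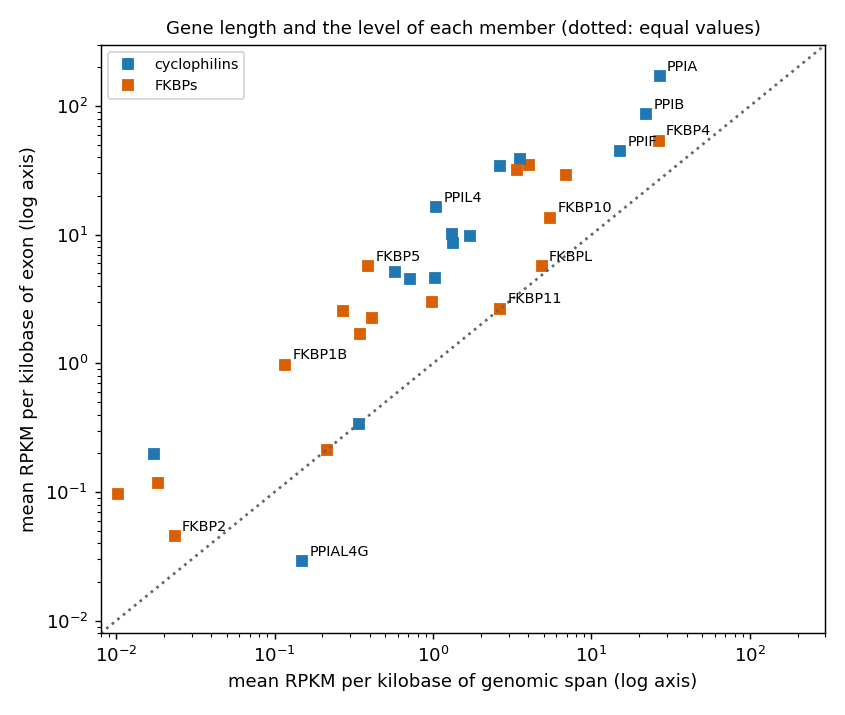
Mean RPKM of each gene per kilobase of genomic span against mean RPKM per kilobase of exon, both axes logarithmic, with the dotted line at equal values. Most genes lie above the line, FKBP11 and FKBPL lie near it, and PPIAL4G, whose transcript in GENCODE 29 is longer than the deposited span, lies below it.

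Between the libraries, 2 members differed in an exact binomial test on reads with Benjamini-Hochberg adjustment over all 332 genes, where 4.52% of genes were called. FKBP5 was higher in replicate 2, with a log2 ratio of 0.68 (exact 95% interval 0.45 to 0.91, adjusted p = 2.54e-07), a direction in which 1.81% of all genes were called. FKBP4 was lower in replicate 2, with a log2 ratio of -0.26 (-0.37 to -0.16, adjusted p = 4.65e-05, exact binomial test), a direction in which 2.71% were called. Both act on the same steroid receptors through HSP90, but whether this bears on the differences was not tested. The test compares 2 libraries of 1 group and covers counting error only. PPIA, with a log2 ratio of -0.05 (-0.11 to 0.02), and PPIB, with 0.06 (-0.08 to 0.19), had narrow intervals that included 0. At an unadjusted p under 0.05, 6 members differed, against 16.6% of the table. FKBP1A, with a log2 ratio of 0.27, did not pass (adjusted p = 0.104, exact binomial test). It passed when replicate 2 was rescaled to a median ratio of 1, at 0.30 (adjusted p = 0.0417, exact binomial test).

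**Figure D4:**
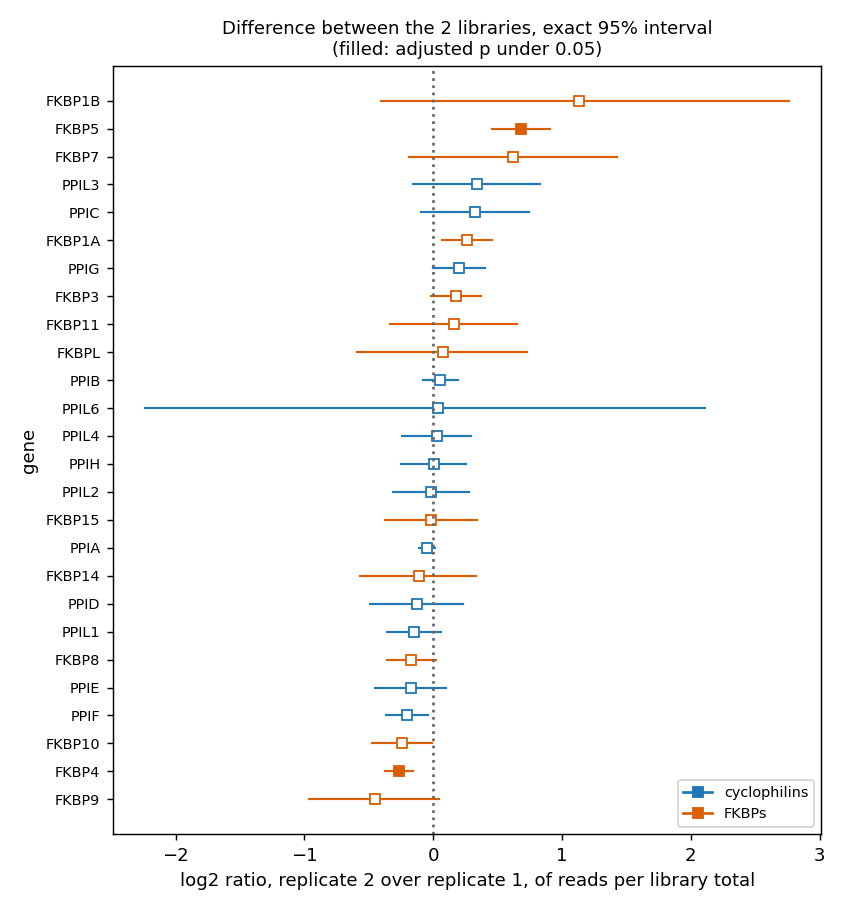
Log2 ratio of reads per library total, replicate 2 over replicate 1, with exact 95% intervals, for members with at least 10 reads in total. Filled squares mark FKBP5, to the right of 0, and FKBP4, to the left; the intervals of most other genes cross 0.

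Relatives outside the naming rule, taken from a fixed list, were read from the same table. NKTR, a large cyclophilin, stood at 1.73 ± 0.0147 RPKM (SD, n = 2) and PPWD1, a cyclophilin with WD repeats, at 1.60 ± 0.154 RPKM. CWC27, a spliceosomal cyclophilin, was at 0.126 ± 0.0313 RPKM per kilobase of genomic span but 8.45 ± 2.09 RPKM per kilobase of exon, from 178 and 165 reads. It differed between the libraries, higher in replicate 2 by 0.51 on the log2 scale (adjusted p = 0.0313, exact binomial test). AIPL1, known from the retina, had 0 reads in both libraries.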

How the data were processed

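Stranded total RNA libraries were prepared from Trizol extracts, per the labels' protocols. Per the submitters' processing notes, GRCh38 was used with STAR 2.6.0b, Bowtie2 2.4.2 and Trim Galore 0.6.4, whose roles are not stated there. The counting program, annotation release, strand setting and treatment of reads in introns are not given. The deposited table gives whole-number read counts per replicate, and the authors' mean RPKM. That RPKM equals the mean of counts per kilobase of genomic span scaled to a library total. The totals were recovered by least squares (largest relative misfit 8.44e-14), and RPKM per replicate was computed from them. Exonic length is the union of exons in GENCODE 29, in which all 332 identifiers were found. With 1 group no count model of groups was possible. Levels were compared on log2(RPKM + 1), with the replicate SD pooled over the table (0.091 by span, 0.125 by exon) as the standard error of a difference. Libraries were compared by a two-sided exact binomial test, Benjamini-Hochberg adjusted at 0.05. The test was run on simulated counts that held counting error only, so that run says nothing on variation beyond it. Reads shared between genes were approximated by windows of 50 bases on annotated transcripts. Compartments were assigned from general knowledge. All members were described, with values in each library for the 3 highest and 3 lowest of each family, small classes and the highest of each class by rule. The members and lists were chosen with earlier results of these data known, and the pairs compared outside the neighbour order were chosen after their values were seen. Python 3.11.15, numpy 2.4.6, pandas 2.3.3 and scipy 1.17.1 were used. A listed relative is not reported here.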

Additional observations from a re-analysis of the deposited data

How the results depend on the processing

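Of 29 recalculations, 13 gave the same call or a value inside the replicate spread (counts: inside 1.5 times), 13 moved, 1 newly passed and 2 reversed. Causes of changes were not tested, except where the construction is stated. At 5 RPKM 6 members were counted instead of 17. The difference of family medians, cyclophilin minus FKBP, was 0.66, and became 1.35 with a pseudocount of 0.1 RPKM, 1.43 with exonic length, 0.24 without the copies, 0.36 with means in place of medians and -0.89 with only genes of at least 1 RPKM, where fewer genes enter. ER minus cytosolic medians went from -0.33 to -0.54 with a pseudocount of 0.1 RPKM and -0.88 with exonic length. Without FKBP2 the difference was -0.22 ± 0.187 (SD, n = 2). Nuclear minus cytosolic medians went from -0.32 to -0.51 with that pseudocount, -1.01 with only genes of at least 1 RPKM and 0.94 with exonic length. The share of PPIA was 19.9%, and became 27.4% with exonic length and 35.3% with reads alone. With either replicate left out the values were 17 to 18 members, 0.63 to 0.70, -0.40 to -0.26, -0.39 to -0.25 and 19.9% to 20.0%; apart from the count of members these are the values of the other library and say nothing on stability, so those 8 are not in the 29. With a pseudocount of 0.1 RPKM 4 pairs of neighbours were resolved instead of 9. PPIA minus FKBP4 passed at 1.65 with exonic length. The removal of FKBP2, the use of means and the PPIA minus FKBP4 recalculations were chosen after seeing the data. Depth limits the lowest genes, since 6 members had under 10 reads in total. No paired analysis was possible because both libraries belong to 1 group.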
